A study of Mus musculus with 45 samples.

Results

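The comparison described here is that of mouse macrophages given interferon gamma and interleukin 4 together for 2 h with untreated macrophages. It rests on 6 of the 45 samples in the series, 3 libraries of each group, and all genes that reached 1 CPM (a gene's read count scaled to the total of its library) in at least 3 of the 21 poly(A) libraries of the table were tested, which were 11380 of 24421 genes. The series measured RNA in primary macrophages grown from C57BL/6 bone marrow in medium conditioned by L929 cells, on day 7 of differentiation. The treated cells received IFNg at 100 ng/ml together with IL4 at 10 ng/ml. The untreated cells received neither cytokine, and both groups share the strain and the medium. Libraries of the same age with IFNg alone at 100 ng/ml for 2 h, with IL4 alone at 10 ng/ml for 2 h, and with both for 4 h, again 3 each, were set beside them. The labels number the replicates 1 to 3 in every group and do not say whether they are separate animals or cultures, so p-values here reflect only how far these libraries spread, and that spread could be technical.

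IFNg binds its receptor on macrophages and acts through the kinases JAK1 and JAK2, which activate factors of the STAT family; STAT dimers bind palindromic sites called GAS elements, and the induced factor IRF1 binds interferon-stimulated response elements (ISRE). IL4 binds IL4RA paired with the common gamma chain and acts mainly through STAT6, which prefers a similar palindrome with a longer spacer. The first pathway drives classical activation, with antimicrobial GTPases, antigen processing and inflammatory chemokines, the other drives alternative activation, with lectins, arginase and tissue-repair factors, and SOCS proteins feed back on both.

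Promoter sequences of 6 genes that the results turn on are shown because they hold the letters of these elements. Of these, 5 belong to genes that were higher with IFNg alone, and Pdcd1lg2 to a gene raised mainly by IL4. In Socs1, Irf1 and Serpina3g all libraries with IL4 alone also lay above all untreated ones. They are the 250 bases before each annotated start, 5′ to 3′ on the strand of the gene, from RefSeq on GRCm38.p6. Capitals mark matches, on either strand, to the GAS letters TTCNNNGAA, to the STAT6 letters with the longer spacer TTCNNNNGAA, or to the ISRE core GAAANNGAAA. Socs1 lies on the minus strand at chr16:10785537-10785786, Irf1 on the plus strand at chr11:53769764-53770013, and Irf8 on the plus strand at chr8:120736108-120736357. Cxcl10 lies on the minus strand at chr5:92348890-92349139, Serpina3g on the plus strand at chr12:104235897-104236146, and Pdcd1lg2 on the plus strand at chr19:29410669-29410918.
Socs1: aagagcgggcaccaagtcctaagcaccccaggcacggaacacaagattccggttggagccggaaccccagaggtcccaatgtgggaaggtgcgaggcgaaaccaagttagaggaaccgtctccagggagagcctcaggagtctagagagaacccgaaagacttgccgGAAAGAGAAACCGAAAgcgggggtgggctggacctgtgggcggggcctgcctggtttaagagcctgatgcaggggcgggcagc
Irf1: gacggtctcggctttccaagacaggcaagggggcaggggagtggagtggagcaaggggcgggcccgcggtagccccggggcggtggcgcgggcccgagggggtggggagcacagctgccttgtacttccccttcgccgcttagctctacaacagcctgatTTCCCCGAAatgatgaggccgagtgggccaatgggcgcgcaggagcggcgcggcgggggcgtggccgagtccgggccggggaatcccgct
Irf8: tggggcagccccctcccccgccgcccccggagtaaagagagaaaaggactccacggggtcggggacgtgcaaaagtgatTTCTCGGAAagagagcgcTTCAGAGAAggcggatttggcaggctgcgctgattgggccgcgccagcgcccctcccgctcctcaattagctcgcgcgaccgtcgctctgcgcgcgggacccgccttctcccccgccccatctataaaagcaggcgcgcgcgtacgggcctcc
Cxcl10: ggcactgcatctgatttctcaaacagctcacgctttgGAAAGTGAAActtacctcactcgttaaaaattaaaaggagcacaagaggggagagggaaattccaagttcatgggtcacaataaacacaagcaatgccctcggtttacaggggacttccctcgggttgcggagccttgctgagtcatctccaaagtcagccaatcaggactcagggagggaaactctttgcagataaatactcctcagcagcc
Serpina3g: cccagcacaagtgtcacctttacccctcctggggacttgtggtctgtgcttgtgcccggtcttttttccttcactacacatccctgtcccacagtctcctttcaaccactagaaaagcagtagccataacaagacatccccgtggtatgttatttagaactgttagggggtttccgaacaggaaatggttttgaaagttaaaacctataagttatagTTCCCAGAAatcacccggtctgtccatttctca
Pdcd1lg2: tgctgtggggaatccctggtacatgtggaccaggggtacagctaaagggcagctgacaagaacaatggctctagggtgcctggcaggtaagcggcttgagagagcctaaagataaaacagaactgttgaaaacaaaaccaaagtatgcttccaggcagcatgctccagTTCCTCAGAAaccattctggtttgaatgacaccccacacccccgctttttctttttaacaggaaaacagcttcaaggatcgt
The overlapping capitals of Socs1 are ISRE cores that begin 83 and 77 bases before the start, and Cxcl10 has an ISRE core 213 bases before it. GAS letters begin 90 bases before the start in Irf1, 171 and 153 bases before it in Irf8, and 33 bases before it in Serpina3g. The capitals of Pdcd1lg2, 82 bases before its start, are the form with the longer spacer. Irf1 and Irf8 each have a further annotated start in the table, whose windows at chr11:53770223-53770472 and chr8:120738389-120738638 hold none of these letters. The windows of Cxcl9, Cish, Il4ra, Irf4, Cd274, Jak2 and Fgd3, also looked at, hold none of these letters. Those of Socs3, Gbp2, Gbp5, Serpina3f and Batf3 were looked at as well, hold GAS letters or ISRE cores, and are not shown. Batf3 has GAS letters, and its log2 change was 1.41 with IFNg alone and 2.85 with IL4 alone. A match describes letters in such a window and does not show a bound factor.

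Depth in the 6 libraries ran from 28920801 to 80028327 reads. The untreated libraries stood apart in their ribosomal RNA: the precursor Rn45s took 0.151%, 43.2% and 15.7% of the reads in untreated replicates 1, 2 and 3 and between 0.11 and 1.2% with both cytokines. For this reason libraries were rescaled by their median ratio, and all CPM values below are rescaled. On the deposited CPM scale the median log2 change of all tested genes is 0.29. Results are also given with untreated replicate 1 as the lone control where that changes a call. Macrophage genes fitted the label: the 15 identity genes summed to 42522 to 66158 CPM untreated and 39354 to 61328 CPM with both cytokines, with 3 called higher and 1 lower. Of 12 markers of T, B and NK cells only Lck and Cd79b passed the filter on low values, and both were higher; the 12 summed to 4.15 to 4.73 CPM untreated and 11.2 to 15.9 CPM with both. Of 7 dendritic cell markers 3 were tested and Clec9a was higher (sums of 3.29 to 5.1 CPM untreated and 5.34 to 6.9 CPM with both). Of 6 endothelial markers 3 were tested, with Pecam1 higher and Kdr lower (71.2 to 142 CPM and 81.2 to 137 CPM). Of 11 neutrophil markers 10 were tested and S100a9 was lower (125 to 249 CPM and 99.5 to 262 CPM), and Kit, the mast cell marker tested, was not called. The calls of Kdr and S100a9 were lost without the block (adjusted p = 0.58 and 0.81). The part of these markers in other results was not tested. None of 7 erythroid markers passed the filter, with a sum of at most 0.543 CPM, and none of 5 tested fibroblast markers was called.

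After 2 h with both cytokines, 2571 genes were higher and 2373 lower than in untreated cells, 22.6% and 20.9% of the 11380 tested and 43.4% together (limma, adjusted p under 0.05, replicate number as a block). A log2 change of at least 1 was reached by 678 of the higher genes and 363 of the lower, 5.96% and 3.19% of those tested. Fold changes are differences of log2(rescaled CPM + 1), which understates the change of genes at low levels. All 3 treated libraries lay above all 3 untreated ones for 2050 genes (18% of those tested) and below them for 1635 (14.4%). The balance depends on the scaling: 52% of calls were higher here, and 84.3% on the deposited scale, where 3186 genes were higher and 593 lower (28% and 5.21%). Without the block 1457 genes were higher and 1068 lower (12.8% and 9.38%). When untreated replicate 1 stood as the lone control, 1914 were higher and 1793 lower (16.8% and 15.8%). The counts of each gene list below are to be read beside the shares of all tested genes in the same fit. These were 22.6% higher and 20.9% lower in the main fit, and 12.8% and 9.38% without the block. In bulk RNA, fewer cells of a kind and less RNA per cell cannot be told apart.

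**Figure D1:**
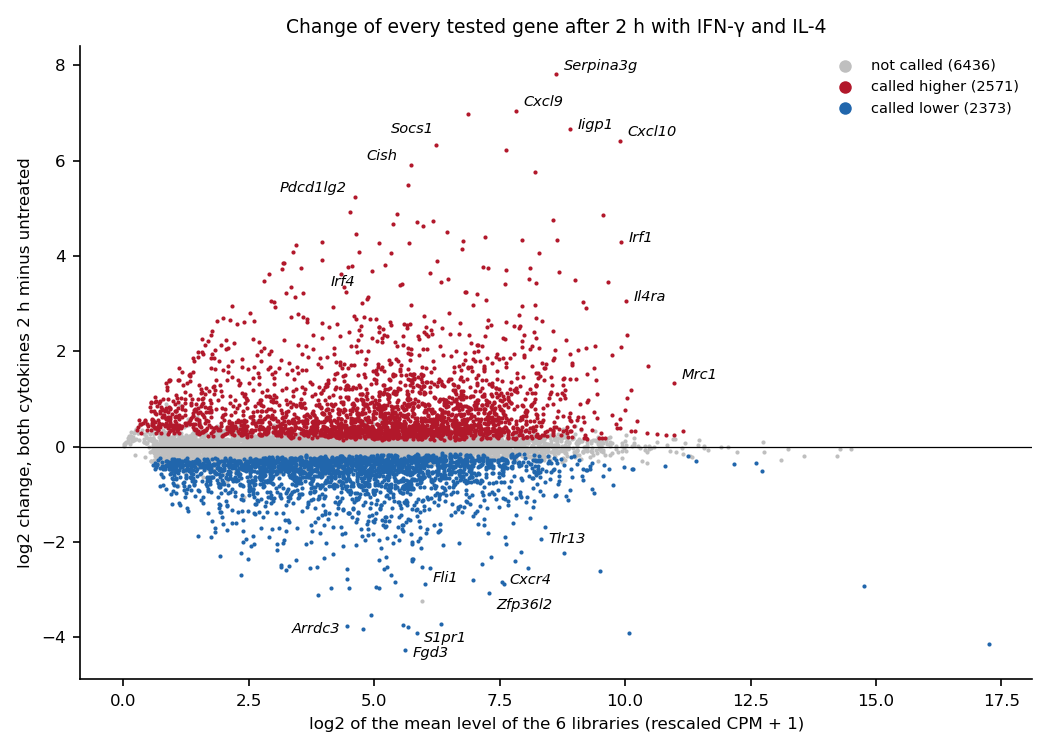
Change of each tested gene (log2, both cytokines for 2 h minus untreated) against its mean level over the 6 libraries (log2 of rescaled CPM + 1), 1 point a gene; red points are the 2571 genes called higher, blue the 2373 called lower. The named rises reach 7.81 for Serpina3g and the named falls -4.27 for Fgd3, and the blue points at the far right include the ribosomal precursor.

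The feedback inhibitors of cytokine signalling were among the strongest rises. Of 8 members of the SOCS family, all tested, 6 rose and 1 fell (22.6% and 20.9% of all tested genes did), the same counts as with the lone control, and their median log2 change was 1.59, against 0.00 for all tested genes. Socs1, which blocks JAK activity, measured 1.3, 0.838 and 0.51 CPM in untreated replicates 1, 2 and 3, and 139, 156 and 147 CPM with both cytokines, the order used throughout. Its log2 change was 6.32 ± 0.19 (SE, n = 3, adjusted p = 2.0e-13). Cish, a STAT5 target that restrains cytokine receptors, went from 0.841, 0.419 and 0.899 CPM to 129, 71.8 and 112 CPM, a log2 change of 5.91 ± 0.20 (adjusted p = 1.1e-12). In both genes every treated library lay far above every untreated one. Exons of Cish overlap other annotated transcripts, and whether reads were counted by strand is not given in the sources used here. Such overlap exists for other genes as well. Among them are Stat6, Il4ra, Irf1, Irf7, Batf2, Cxcl10, Cd274, Ch25h, Nlrc5, Ciita, Dtx3l and Parp14. Further ones are Dusp1, Cdkn1a, Slc7a2, Slc2a1, Cpeb2, Pxdc1, Bhlhe41, Lpar6, Abhd15, Zfp36l2, H2-DMa, Cnn3, Edn1, Arhgap22 and Samd4. Clec9a overlaps Clec1b on the same strand. Socs3, which is known for damping STAT3, rose from 17.8, 7.73 and 13 CPM to 339, 249 and 249 CPM (log2 4.39 ± 0.27, adjusted p = 7.5e-10). Socs2, an inhibitor of growth hormone and STAT5 signalling, rose by log2 2.61 ± 0.13. It measured 0.299 to 0.651 CPM in the untreated libraries and 8.15 CPM on average with both cytokines. Socs6 fell by 0.71 on the log2 scale, a call lost without the block (adjusted p = 0.066) and on the deposited scale (adjusted p = 0.16).

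**Figure D2:**
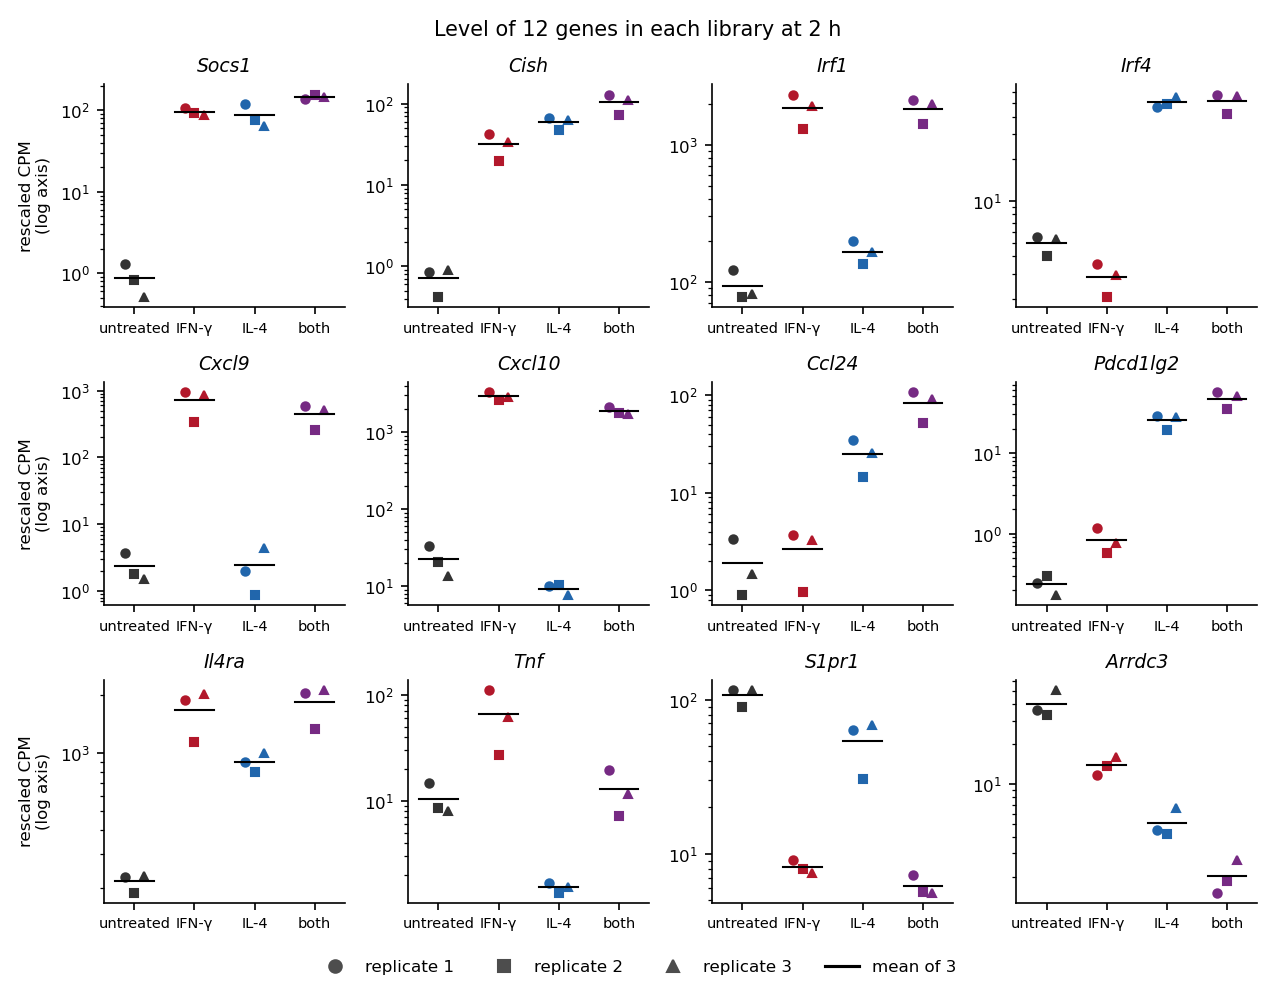
Rescaled CPM (log axis) of 12 genes in each library at 2 h, with untreated, IFN-γ alone, IL-4 alone and both cytokines from left to right; symbols give the replicate number and lines the mean of 3 libraries. With both cytokines Socs1 and Cish lie above each cytokine alone, Irf1 at the level of IFN-γ alone, Irf4 at that of IL-4 alone, and Tnf between them.

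The relative order of the SOCS genes differed by cytokine. Socs1 with IFNg alone measured 107, 92.4 and 86.8 CPM and with IL4 alone 120, 75.1 and 64.8 CPM, so the combination was higher than either, by log2 0.63 (adjusted p = 0.044, and 0.19 without the block) and 0.81 (adjusted p = 0.003). Cish was higher with both than with IFNg alone by log2 1.70 (adjusted p = 1.5e-05) and than with IL4 alone by 0.79 (adjusted p = 0.0057, and 0.17 without the block). Socs3 responded to IFNg (483, 266 and 342 CPM) and measured 11.9, 7.33 and 14 CPM with IL4, within the untreated range except for replicate 2. Socs2 was the reverse: IL4 alone brought it to 32.4, 21.2 and 27.1 CPM, and with both cytokines, at 10.3, 6.12 and 8.02 CPM, it was lower than with IL4 alone (log2 difference -1.62 ± 0.13, adjusted p = 5.7e-08).

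Among receptors, kinases and STATs, 12 of 22 rose and 4 fell, with a median of 0.31 (11 and 3 with the lone control; 10 and 2 without the block). Il4ra, the IL4 receptor alpha chain, measured 229, 189 and 232 CPM untreated and 2065, 1342 and 2130 CPM with both, a log2 change of 3.06 ± 0.18 (adjusted p = 3.2e-10). The groups did not overlap. Jak2, the kinase of the IFNg receptor, rose from 52.4, 44.6 and 40.8 CPM to 128, 117 and 104 CPM (log2 1.32 ± 0.09). The phosphatase gene Ptpn2, whose product dephosphorylates JAKs and STATs, rose by 1.49. Stat2, Stat3, Stat5a and Stat5b rose by 1.15 to 1.28. Stat6 moved little, from 249, 233 and 244 CPM to 189, 171 and 190 CPM (log2 -0.40 ± 0.07, adjusted p = 2.6e-04), and that call was lost on the deposited scale (adjusted p = 0.77). The IFNg receptor chains Ifngr1 and Ifngr2 had log2 changes of -0.69 and -0.49, both calls lost without the block (adjusted p = 0.18 and 0.24) and on the deposited scale (adjusted p = 0.12 and 0.5).

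The interferon regulatory factors are transcription factors downstream of both pathways, and 6 of 8 tested rose, with none lower and a median of 1.13; the counts were the same with the lone control and without the block. Irf1, the main secondary factor of the IFNg response, went from 122, 77.2 and 81.3 CPM to 2121, 1421 and 1987 CPM (log2 4.30 ± 0.11, adjusted p = 2.9e-14). Irf4, which supports alternative activation, went from 5.54, 4.01 and 5.37 CPM to 57.5, 41.9 and 56.4 CPM (log2 3.14 ± 0.17, adjusted p = 2.0e-10). Both factors were thus far above the untreated range in all 3 replicates. Irf8, a lineage factor of macrophages and partner of Irf1, rose from 277, 166 and 202 CPM to 675, 381 and 531 CPM, a log2 change of 1.29 ± 0.09. Against IFNg alone, where Irf8 measured 1000, 648 and 814 CPM, the combination was lower (log2 -0.65, adjusted p = 1.2e-04, and 0.37 without the block). Irf7, the amplifier of type I interferon, rose by 1.88, Irf2 by 0.97 and Irf9 by 0.40, while Irf3 and Irf5 had log2 changes of -0.07 (adjusted p = 0.48) and -0.16 (adjusted p = 0.07).

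Leucine-zipper factors were mixed: 9 of 20 tested rose and 3 fell (8 and 3 with the lone control), with a median of 0.33. Batf3, known from dendritic cell development, measured 1.68, 0.838 and 0.967 CPM untreated and 55.8, 38.5 and 45.5 CPM with both (log2 4.46 ± 0.16, adjusted p = 1.3e-12). With IFNg alone it measured 6.12, 3.49 and 4.71 CPM and with IL4 alone 22.1, 9.56 and 14 CPM, so every library with both cytokines lay above every library with either. The differences were log2 3.05 (adjusted p = 8.0e-10) and 1.61 (adjusted p = 4.6e-07). Batf2, a partner of Irf1 in classical activation, rose by 4.63 and the repressor Nfil3 by 3.46. Fos, an AP-1 subunit, fell from 25.8, 9.22 and 11.2 CPM to 2.56, 1.11 and 1.07 CPM (log2 -2.59 ± 0.17). Maff and Jun were higher by 1.79 and 0.88, calls lost without the block (adjusted p = 0.068 and 0.18).

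**Figure D3:**
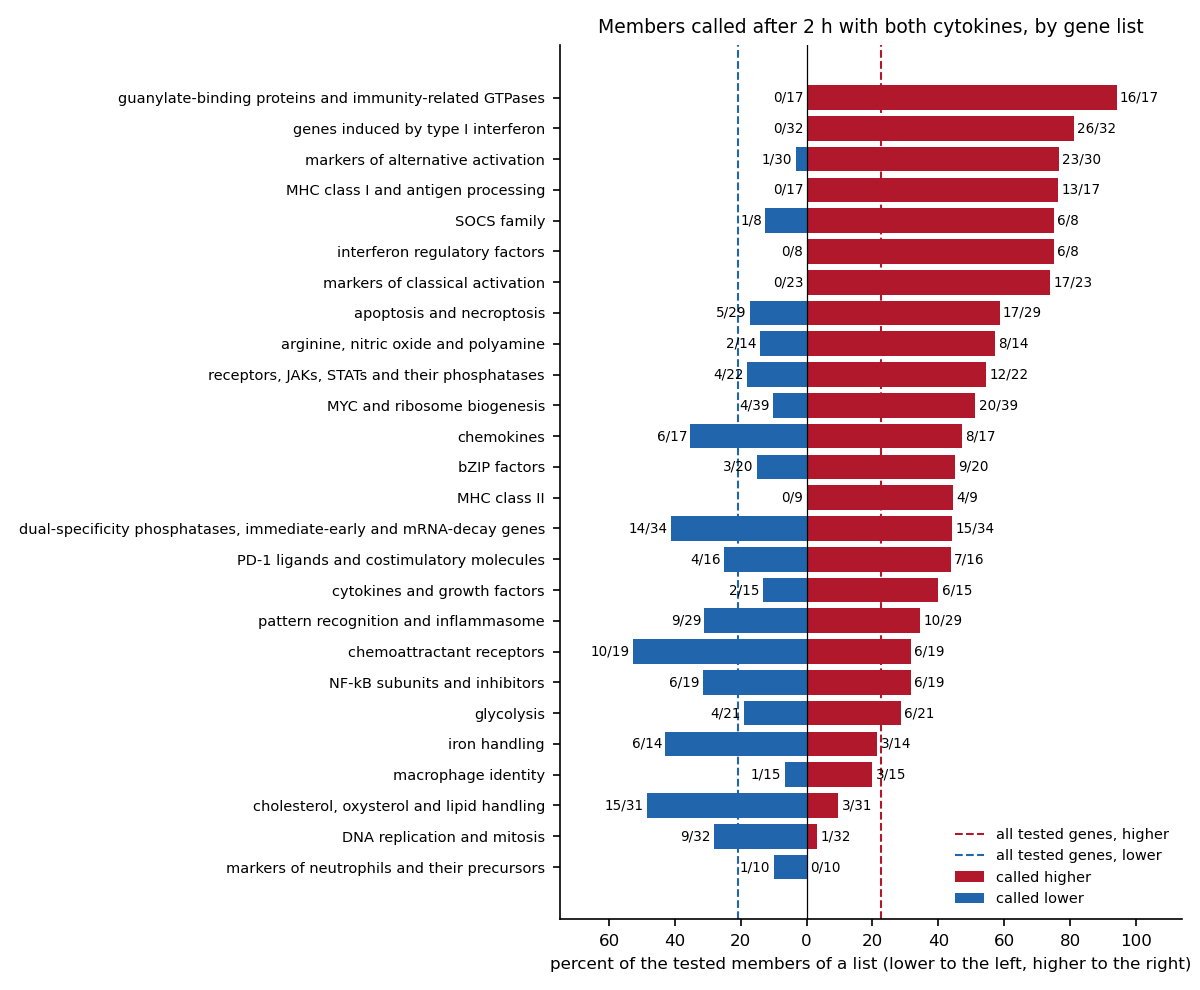
Percent of the tested members of each gene list with at least 8 tested members called higher (red, to the right) or lower (blue, to the left) with both cytokines for 2 h against untreated; labels give called over tested members and dashed lines the shares of all tested genes, 22.6% higher and 20.9% lower. Among these lists the GTPases have the highest share higher, 16 of 17, and chemoattractant receptors the highest share lower, 10 of 19.

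The GTPases that attack intracellular pathogens rose nearly as a whole. Of 19 guanylate-binding proteins and immunity-related GTPases, 17 passed the filter and 16 rose, with a median log2 change of 3.74 (15 with the lone control and 15 without the block). In all 17 the treated libraries lay above the untreated ones, beside 18% of all tested genes. Iigp1, an immunity-related GTPase, rose from 14.4, 6.95 and 5.05 CPM to 1073, 645 and 1136 CPM (log2 6.67 ± 0.27, adjusted p = 6.0e-12). Gbp5, which promotes inflammasome assembly, rose from 17.4, 6.17 and 7.33 CPM to 671, 380 and 682 CPM (log2 5.76 ± 0.17), and Gbp2 from 94.3, 41.9 and 28.4 CPM to 1562, 1098 and 1698 CPM (log2 4.86 ± 0.31). Igtp and Irgm1 rose by 3.74 and 3.46. Gbp10 measured at most 0.121 CPM and was not called (log2 0.09, adjusted p = 0.54), and the call of Gbp2b (0.48) was lost without the block (adjusted p = 0.15). Close copies in this family, as in the Serpina3, Ccl, Ifit, Oas and H2 families, can share reads, so the split between members is uncertain. Against IFNg alone none of the 17 was higher and 2 were lower (5.87% and 4.5% of all tested genes were), with 0 lower without the block. Against IL4 alone 16 were higher (16.3% of all), 15 without the block.

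Antigen processing for MHC class I rose in 13 of 17 tested genes with none lower and a median of 0.78 (13 with the lone control, 12 without the block). Tap1, a subunit of the peptide transporter, went from 59.4, 82.9 and 57.5 CPM to 345, 260 and 360 CPM (log2 2.26 ± 0.28, adjusted p = 3.9e-06). Its exons overlap those of Psmb9, an immunoproteasome subunit, which rose by 1.23. Nlrc5, the class I transactivator, rose by 1.68 and H2-T23 by 0.85. The heavy chains H2-K1 and H2-D1 had log2 changes of 0.25 (adjusted p = 0.096) and 0.15 (adjusted p = 0.24), and B2m, the light chain, 0.32 (adjusted p = 0.038, and 0.14 without the block).

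MHC class II genes moved much less at this time. Of 9 tested, 4 were called higher with a median of 0.31, 1 with the lone control and 0 without the block, and in none did the groups separate. Ciita, the class II transactivator, measured 13.5, 3.05 and 9.75 CPM untreated and 17.8, 4.27 and 13.6 CPM with both (log2 0.40 ± 0.11, adjusted p = 0.0092, and 0.75 without the block). Cd74, the invariant chain, measured 293, 57.7 and 140 CPM and 461, 72.2 and 161 CPM (log2 0.39, adjusted p = 0.017, and 0.85 without the block). The call of Ciita was also lost without untreated replicate 2 (adjusted p = 0.069) or treated replicate 1 (adjusted p = 0.062), and that of Cd74 likewise (adjusted p = 0.056 and 0.15). Levels in replicate 2 were the lowest in both groups, so the replicates differed more than the groups. Mki67, a proliferation marker, measured 31, 516 and 203 CPM untreated and 74.1, 507 and 123 CPM with both, highest in replicate 2 in each. What the replicates share was not tested.

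Genes induced by type I interferon rose in 26 of 32 cases with none lower and a median of 1.20, 22 with the lone control and 12 without the block. Trim21, an antibody receptor and ubiquitin ligase in the cytosol, rose from 42.4, 55.3 and 40.5 CPM to 272, 315 and 239 CPM (log2 2.56 ± 0.11, adjusted p = 1.4e-11). Zbp1, a sensor of Z-form nucleic acid, rose by 2.37, Dtx3l by 2.27 and Parp14 by 2.09. Ifit1, which binds viral RNA, measured 81.5, 107 and 42.4 CPM and 187, 349 and 77.1 CPM, and here the groups overlapped although each replicate was higher with both (log2 1.24 ± 0.24, adjusted p = 4.7e-04, and 0.31 without the block). Rsad2, an antiviral enzyme, measured 115, 140 and 66.8 CPM untreated and 124, 205 and 56 CPM with both (log2 0.13 ± 0.25, adjusted p = 0.7). With IFNg alone Rsad2 measured 205, 511 and 144 CPM, and the combination was lower than that (log2 difference -1.13, adjusted p = 0.0054, and 0.96 without the block). Of the 32 genes, 31 were higher with both cytokines than with IL4 alone (16.3% of all tested genes), 16 of them without the block (8.68% of all), and none was higher than with IFNg alone.

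**Figure D4:**
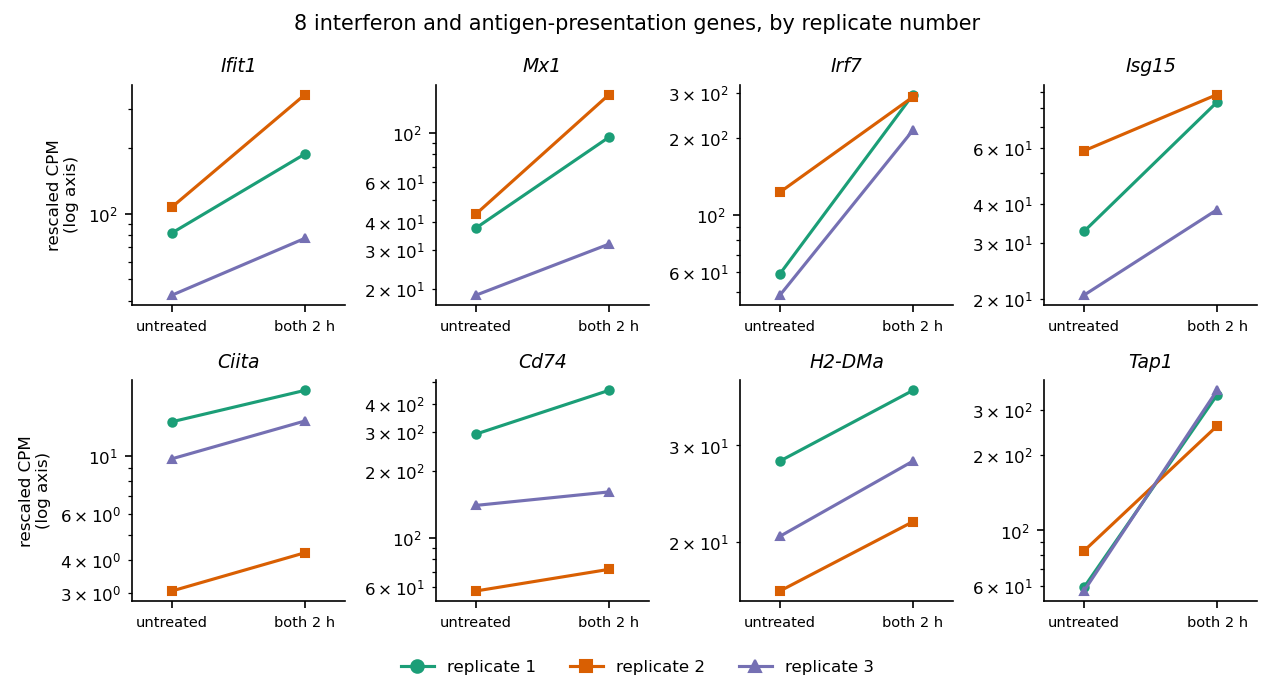
Rescaled CPM (log axis) of 8 interferon and antigen-presentation genes without treatment and with both cytokines for 2 h, with lines joining libraries of the same replicate number. In Ifit1, Ciita and Cd74 every line climbs while the replicates stay apart, and in Tap1 all 3 treated values, 260 to 360, lie above the untreated ones, 57.5 to 82.9.

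Chemokines moved in both directions: 8 of 17 tested rose and 6 were called lower, with a median of 0.06. Of the 6 lower only Ccl3 was called without the block and 3 were on the deposited scale, and with the lone control 8 rose and 5 fell. The highest rises of the list were those of Cxcl9 and Cxcl10, CXCR3 ligands that draw T cells. Cxcl9 went from 3.77, 1.8 and 1.53 CPM to 579, 255 and 514 CPM (log2 7.04 ± 0.32, adjusted p = 1.9e-11) and Cxcl10 from 32.8, 20.3 and 13.6 CPM to 2142, 1786 and 1717 CPM (log2 6.42 ± 0.25, adjusted p = 3.9e-12). Cxcl11, also a CXCR3 ligand, rose by 1.98. With IL4 alone Cxcl10 measured 9.98, 10.2 and 7.69 CPM, below every untreated library.

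Several CC chemokines that attract monocytes were called higher with either cytokine. Ccl7 measured 2.2, 7.49 and 2.31 CPM untreated, 51.2, 153 and 28.9 CPM with IFNg alone, 111, 349 and 68.7 CPM with IL4 alone, and 310, 683 and 176 CPM with both. The log2 change with both was 6.23 ± 0.25 (adjusted p = 3.9e-12), and the combination was higher than IFNg alone by 2.43 (adjusted p = 2.4e-06) and than IL4 alone by 1.26 (adjusted p = 6.2e-04), both calls lost without the block (adjusted p = 0.19 and 0.43). In each replicate the order was the same, with replicate 2 highest in every group. Ccl12, Ccl2 and Ccl8 rose by 4.72, 4.14 and 3.76. With IL4 alone Ccl12 and Ccl8 had log2 changes of 2.05 and 1.29, calls lost without the block (adjusted p = 0.084 and 0.16). Ccl24, an eosinophil attractant of alternative activation, went from 3.39, 0.898 and 1.48 CPM to 107, 52.5 and 91 CPM (log2 4.88 ± 0.19) and measured 34.8, 14.6 and 25.5 CPM with IL4 alone, lower than with both by log2 1.72 (adjusted p = 2.2e-06). With IFNg alone Ccl24 measured 3.71, 0.952 and 3.25 CPM. Ccl3, an inflammatory chemokine, fell from 108, 55.2 and 57 CPM to 15.1, 6.89 and 6.78 CPM (log2 -2.83 ± 0.32, adjusted p = 1.4e-06). Ccl4, its close relative, had a log2 change of -1.11, a call lost without the block (adjusted p = 0.16).

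Among cytokines and growth factors 6 of 15 tested rose and 2 fell, with a median of 0.23 (5 and 3 with the lone control), and 9 of the 24 listed, Il6, Il12b and Ifnb1 among them, did not pass the filter on low values. Tnf, the central inflammatory cytokine, measured 14.7, 8.5 and 7.97 CPM untreated and 19.7, 7.23 and 11.7 CPM with both, overlapping groups (log2 0.23 ± 0.31, adjusted p = 0.57). It measured 111, 26.8 and 61.6 CPM with IFNg alone and 1.67, 1.35 and 1.53 CPM with IL4 alone. The combination was lower than IFNg alone (log2 difference -2.17, adjusted p = 9.1e-05) and higher than IL4 alone by 2.36 (adjusted p = 1.1e-05). Hbegf, an EGF receptor ligand, rose from 0.299 to 0.651 CPM up to 17.8 to 43.9 CPM (log2 4.29 ± 0.24). Tnfsf10, the death ligand TRAIL, rose by 2.35, Csf1, the macrophage growth factor, by 2.32, and Il15 by 1.63. Vegfa, the vascular growth factor, fell from 74.3, 39.7 and 54.3 CPM to 12.7, 5.48 and 12.4 CPM (log2 -2.38 ± 0.17, adjusted p = 3.5e-09).

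Markers of classical activation rose in 17 of 23 tested genes with none lower and a median of 1.29 (18 with the lone control). Serpina3g, a serine protease inhibitor at chromosome 12, 104236245 to 104241939 (GENCODE M21 on GRCm38), had the highest rise among the named genes: 3.31, 2.99 and 1.49 CPM became 898, 712 and 755 CPM (log2 7.81 ± 0.19, adjusted p = 2.9e-14). IFNg alone gave 497, 287 and 374 CPM and IL4 alone 45.2, 21.3 and 21.8 CPM, and the combination was higher than both, by log2 1.06 (adjusted p = 8.9e-04, and 0.099 without the block) and 4.78 (adjusted p = 8.4e-12). Ch25h, which makes 25-hydroxycholesterol, rose by 4.68 and Cd40, a costimulatory receptor, by 3.52. Irg1, the itaconate synthase, rose from 12.5, 4.79 and 3.4 CPM to 242, 146 and 113 CPM (log2 4.51 ± 0.33), and was lower than with IFNg alone (750, 337 and 435 CPM, log2 difference -1.59, adjusted p = 0.0032, and 0.098 without the block). Nos2, inducible nitric oxide synthase, was low: 0.109, 0 and 0 CPM became 1.19, 0.544 and 0.87 CPM (log2 0.84 ± 0.21, adjusted p = 0.0042). In the treated libraries 1 read was 0.022 to 0.023 CPM before rescaling. The mean of Nos2 went from 0.0362 to 0.866 CPM, a change that the added 1 CPM understates. IFNg alone gave Nos2 at 4.03, 2.02 and 2.36 CPM, above every library with both cytokines. Leaving replicate 3 out of all groups ended the call of Nos2 (log2 0.80, adjusted p = 0.08). Against IFNg alone, 1 of the 23 was higher and 7 were lower (5.87% and 4.5% of all tested genes), but 0 and 1 without the block.

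Markers of alternative activation rose in 23 of 30 tested genes, 1 was called lower, and the median was 2.00 (22 and 0 with the lone control, 18 and 0 without the block). Pdcd1lg2, the gene of PD-L2, went from 0.244, 0.299 and 0.175 CPM to 55.9, 34.4 and 50.1 CPM (log2 5.24 ± 0.21, adjusted p = 4.7e-12). It measured 1.17, 0.579 and 0.769 CPM with IFNg alone and 28.4, 19.4 and 27.9 CPM with IL4 alone, and with both it was higher than with IL4 alone by log2 0.86 (adjusted p = 0.0042, and 0.079 without the block). Mrc1, the mannose receptor, rose from 1111, 1093 and 1180 CPM to 3204, 2262 and 3163 CPM (log2 1.33 ± 0.12). Clec7a, the beta-glucan receptor dectin-1, rose from 242, 82.5 and 128 CPM to 1255, 1008 and 867 CPM (log2 2.90 ± 0.21, adjusted p = 4.6e-09). The combination exceeded IFNg alone by 2.26 and IL4 alone by 1.23 in Clec7a, the latter call lost without the block (adjusted p = 0.064). Fn1, fibronectin, rose by 2.00 with both, whereas its log2 change was 0.24 with IFNg alone (adjusted p = 0.39) and 0.48 with IL4 alone (adjusted p = 0.1).

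Arg1, Tmem26, Klf4 and Rasgrp1, also markers of alternative activation, were below the level that IL4 alone gave. Arg1, arginase, measured 6.94, 17.1 and 5.19 CPM with IL4 alone and 1.11, 2.08 and 0.891 CPM with both (log2 difference -2.06, adjusted p = 6.0e-04), and against untreated cells (0.0271, 0.539 and 0.201 CPM) it was not called (log2 0.90 ± 0.40, adjusted p = 0.08). Tmem26, a membrane protein, rose by 1.99 with both and by 3.97 with IL4 alone, a difference of -1.97 (adjusted p = 5.5e-09). Klf4, a factor that works with STAT6, rose by 1.01 against 2.84 with IL4 alone (difference -1.83, adjusted p = 5.9e-06), and Rasgrp1, a Ras activator, by 3.86 against 5.30 (difference -1.43, adjusted p = 8.2e-04). Retnla, a secreted factor of alternative activation, was at 0 in all 3 untreated libraries and at most 0.142 CPM with both. Chil3, the chitinase-like protein Ym1, had a log2 change of 0.54, a call lost without the block (adjusted p = 0.64), without untreated replicate 1 (adjusted p = 0.067) and without treated replicate 2 (adjusted p = 0.051). Against IL4 alone Chil3 was not called (log2 difference 0.17, adjusted p = 0.46). In all, 10 of the 30 were higher and 12 lower with both cytokines than with IL4 alone (16.3% and 17% of all tested genes), but 4 and 7 without the block (8.68% and 6.13% of all). Of the 30, 16 were higher and 1 lower than with IFNg alone (5.87% and 4.5% of all tested genes), and 15 and 0 without the block.

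**Figure D5:**
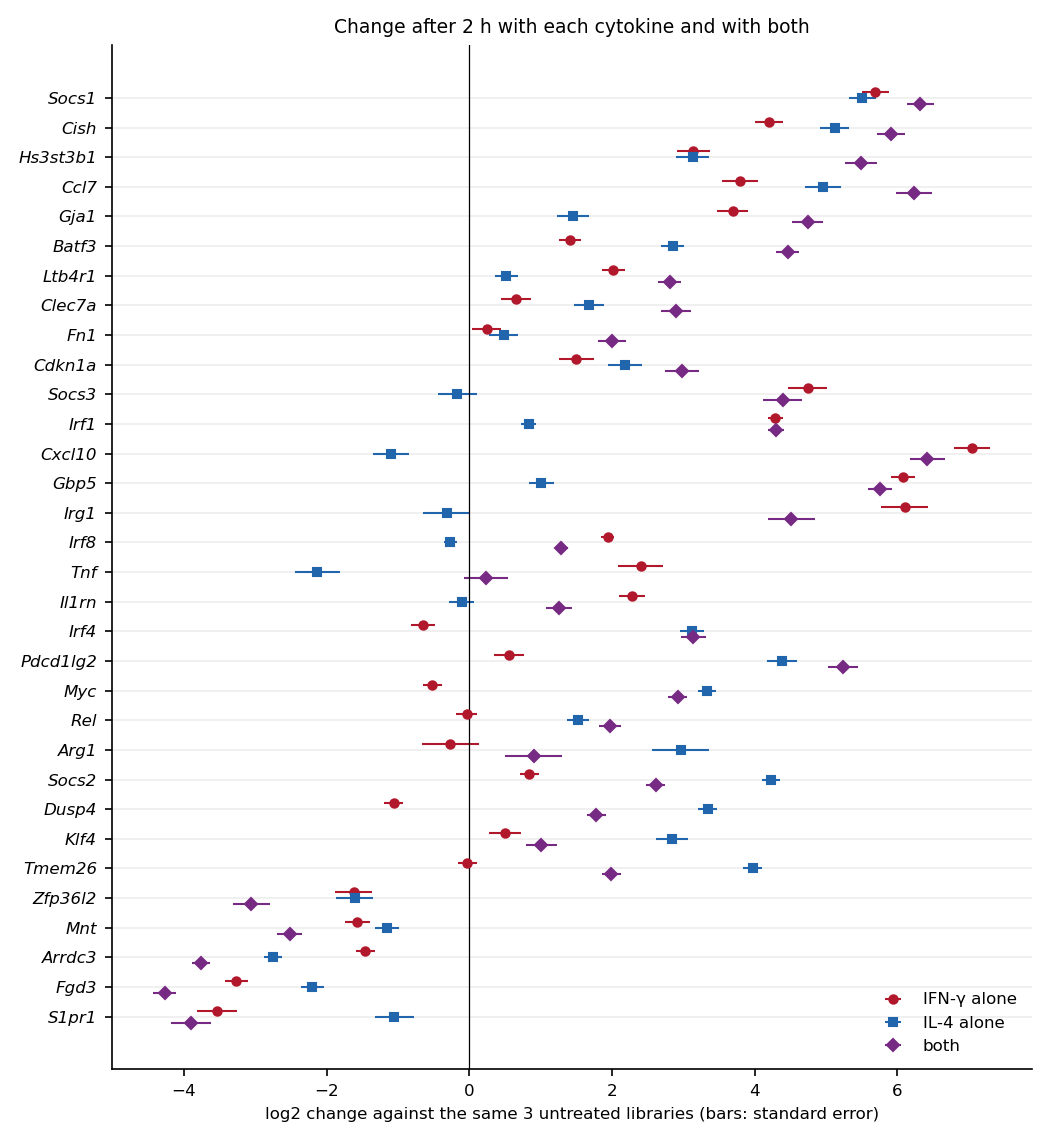
Log2 change (bars: standard error) of named genes against the same 3 untreated libraries after 2 h with IFN-γ alone, IL-4 alone or both; because the untreated libraries are shared, the changes are not independent. Hs3st3b1 lies at 3.14, 3.13 and 5.49, Tnf at 2.40, -2.13 and 0.23, and Arrdc3 at -1.46, -2.75 and -3.76.

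The transcription factor MYC and the ribosome biogenesis genes it is known to drive rose more often than they fell. Of 39, 20 rose, 4 fell and 15 were not called, with a median of 0.20 (17 and 4 with the lone control, 11 and 4 without the block). Myc went from 3.39, 4.07 and 2.38 CPM to 36.2, 27.5 and 29.6 CPM (log2 2.92 ± 0.13, adjusted p = 1.3e-11). With IFNg alone it measured 2.74, 1.66 and 1.59 CPM and with IL4 alone 48.9, 47.5 and 30.9 CPM. Mnt, a repressor that competes for the MYC partner MAX, fell from 81.5, 43.5 and 68.2 CPM to 12, 7.23 and 11.5 CPM (log2 -2.52 ± 0.17, adjusted p = 2.2e-09). Mnt was lower with both than with IFNg alone (log2 -0.96, adjusted p = 8.3e-04, and 0.12 without the block) and than with IL4 alone (log2 -1.37, adjusted p = 6.7e-06). The ribosome assembly genes Noc4l and Rrs1 rose by 2.58 and 1.83. Among the 15 not called, the abundant Npm1 and Ncl had log2 changes of 0.01 (adjusted p = 0.91) and 0.05 (adjusted p = 0.61). Of the 39 genes, 14 were higher and 2 lower than with IFNg alone (5.87% and 4.5% of all tested genes), but 3 and 1 without the block. Against IL4 alone 7 were higher and 18 lower (16.3% and 17% of all), but 2 and 3 without the block.

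NF-kB subunits and inhibitors were evenly split, 6 of 19 higher and 6 lower, with a median of 0.04 (6 and 5 with the lone control, 4 and 4 without the block). Rel, the c-Rel subunit, rose from 22.4, 17.9 and 17.8 CPM to 102, 58.7 and 79.8 CPM (log2 1.97 ± 0.15) and its log2 change with IFNg alone was -0.04 (adjusted p = 0.84). The inhibitors Tnip3 and Tnfaip3 rose by 3.42 and 2.26. Nfkbiz, an inducible IkB protein that activates secondary genes, fell by 1.49 on the log2 scale. Among sensors of microbes, 10 of 29 rose and 9 were called lower, with a median of 0.09 (9 and 7 with the lone control). Of these sensors 2 were lower without the block and 3 on the deposited scale. Cytosolic members that rose included Nod1 by 2.97, Casp4 by 2.60, Tmem173, which encodes STING, by 2.53, and Mb21d1, which encodes cGAS, by 2.22. Tlr3, the endosomal receptor for double-stranded RNA, rose by 2.40. Tlr13, a receptor for bacterial ribosomal RNA, fell from 493, 568 and 443 CPM to 119, 192 and 96 CPM (log2 -1.93 ± 0.14, adjusted p = 3.8e-09), with no overlap. Tlr2, a receptor for lipoproteins, had a log2 change of -1.62, lost without the block (adjusted p = 0.12).

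Receptors for chemoattractants fell more often than they rose: of 19 tested, 10 fell and 6 rose, with a median of -0.31 (7 and 5 with the lone control, 8 and 4 without the block, 6 and 6 on the deposited scale). S1pr1, the receptor for sphingosine 1-phosphate, went from 115, 89.4 and 115 CPM to 7.3, 5.66 and 5.59 CPM (log2 -3.90 ± 0.28, adjusted p = 5.3e-09). Cxcr4, the receptor for CXCL12 that holds cells in the marrow, fell from 417, 165 and 397 CPM to 69.1, 23.7 and 43.3 CPM (log2 -2.83 ± 0.20, adjusted p = 3.0e-09). In both, each treated library was below every untreated one. Ptafr, the receptor for platelet-activating factor, fell by 2.80 on the log2 scale, and the complement receptors C5ar2 and C5ar1 fell by 2.49 and 2.04. Gpr183, an oxysterol receptor, differed in direction between the cytokines: it measured 29.1, 39.9 and 32.6 CPM untreated, 2.61, 5.96 and 3.13 CPM with IFNg alone, 80.5, 93.1 and 67.6 CPM with IL4 alone, and 21.1, 28.5 and 16.7 CPM with both. Its log2 change with both was -0.61 (adjusted p = 0.032, and 0.26 without the block). Ltb4r1, the leukotriene B4 receptor, rose from 0.57, 0.299 and 0.376 CPM to 7.94, 12.5 and 6.94 CPM (log2 2.81 ± 0.16), and the chemokine receptor Ccr1 rose by 2.58.

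Of 34 immediate-early, phosphatase and mRNA-decay genes, 15 rose and 14 fell, with a median of -0.10 (14 and 11 with the lone control). Zfp36l2, which promotes decay of AU-rich mRNAs, fell from 341, 219 and 274 CPM to 32.5, 24.5 and 40.5 CPM (log2 -3.06 ± 0.26, adjusted p = 3.9e-08). Its paralog Zfp36, tristetraprolin, rose from 93, 66.7 and 72.1 CPM to 345, 216 and 275 CPM (log2 1.83 ± 0.22). So these members of the same family moved in opposite directions with no overlap between groups in either. Dusp1, a MAP kinase phosphatase, fell from 10.9, 7.07 and 5.49 CPM to 0.379, 0.342 and 0.261 CPM (log2 -2.69 ± 0.19), and Dusp4 rose by 1.78, between its values with IFNg alone (-1.06) and with IL4 alone (3.34). The immediate-early gene Egr2 rose by 4.28 and the kinase gene Pim1 by 2.51, while the antiproliferative gene Btg2 and Ier2 fell by 2.06 and 2.03.

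PD-1 ligands and costimulatory molecules had 7 of 16 higher and 4 lower, with a median of 0.04 (7 and 3 with the lone control, 5 and 1 without the block). Cd274, which encodes PD-L1, rose from 58.9, 26.6 and 30.9 CPM to 894, 613 and 775 CPM (log2 4.33 ± 0.22, adjusted p = 6.4e-11). IFNg alone gave 835, 450 and 632 CPM and IL4 alone 170, 183 and 126 CPM of Cd274, and the combination was not distinguished from IFNg alone (log2 0.28, adjusted p = 0.6). Icam1, an adhesion ligand, rose by 1.92 and Tnfrsf1b, TNF receptor 2, fell by 1.68 on the log2 scale. Apoptosis and necroptosis genes rose in 17 of 29 cases and fell in 5, with a median of 0.64 (17 and 5 with the lone control, 10 and 3 without the block). The death receptor Fas rose by 2.20, Daxx by 2.11 and the necroptosis effector Mlkl by 1.75. The BH3-only genes Bbc3 (PUMA) and Pmaip1 (NOXA), known p53 targets, fell by 2.04 and 1.58. Cdkn1a, another p53 target that halts the cell cycle, rose from 58.5, 72.5 and 61.2 CPM to 633, 395 and 534 CPM (log2 2.98 ± 0.24, adjusted p = 2.1e-08).

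Metabolic genes were mixed. In cholesterol and lipid handling 3 of 31 rose and 15 were called lower with a median of -0.22, but 4 and 6 were with the lone control and 1 and 3 without the block. The lower ones called without the block included Mylip, a ligase that degrades the LDL receptor, which fell from 99.1, 50.5 and 57.2 CPM to 14.3, 7.72 and 7.44 CPM (log2 -2.69 ± 0.17), and the cholesterol exporter Abca1, which fell by 1.43. Both are known LXR targets. In iron handling 3 of 14 rose and 6 were lower, with a median of -0.22 (3 and 5 with the lone control, 2 and 2 without the block). The share of iron genes that rose was near that of all tested genes (22.6%). Bach1, a heme-regulated repressor, rose by 1.86 and Tfrc, the transferrin receptor, by 1.67, while the iron exporter Slc40a1 fell from 205, 86.7 and 147 CPM to 64.5, 46.9 and 55.2 CPM (log2 -1.31 ± 0.27) and Hmox1, heme oxygenase, fell by 1.02. In arginine metabolism 8 of 14 rose and 2 were lower, with a median of 0.52 (7 and 0 with the lone control, 5 and 0 without the block), led by the arginine transporter Slc7a2 at 2.34. In glycolysis 6 of 21 rose and 4 were lower, shares near those of all tested genes (22.6% and 20.9%), with a median of -0.07 (4 and 2 with the lone control, 3 and 2 without the block). Named members were the glucose transporter Slc2a1 at 1.30 and the regulator Pfkfb3 at -1.39. DNA replication and mitosis genes were lower in 9 of 32 cases and higher in 1, with a median of -0.33, and lower in 2 with the lone control and 1 without the block. The member called lower in each of these fits was Cdt1, a licensing factor of replication, with a log2 change of -1.43. On the deposited scale 4 of the lipid genes, 2 of the iron genes and 2 of the replication genes were lower.

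The strongest falls were outside the interferon and IL4 marker lists. Fgd3, an activator of the small GTPase CDC42 at chromosome 13, 49261554 to 49320311, went from 85.7, 87.9 and 102 CPM to 3.11, 4.19 and 4.17 CPM (log2 -4.27 ± 0.16, adjusted p = 1.6e-12). IFNg alone gave 7.98, 7.94 and 9.95 CPM and IL4 alone 17.2, 17.4 and 23.5 CPM, so the combination was below both in every replicate, with log2 differences of -1.0 (adjusted p = 2.5e-04) and -2.07 (adjusted p = 2.1e-08). Arrdc3, an arrestin-domain adaptor at chromosome 13, 80883384 to 80896042, went from 36.3, 33 and 50.9 CPM to 1.52, 1.87 and 2.7 CPM (log2 -3.76 ± 0.13, adjusted p = 1.3e-12). Its log2 difference was -2.30 to IFNg alone (adjusted p = 2.9e-09) and -1.01 to IL4 alone (adjusted p = 1.2e-05). The transcription factor genes Bhlhe41, Tgif1, Nfatc2 and Fli1 fell by 3.79, 3.52, 2.94 and 2.89. Fli1, an ETS factor of blood cells, was even across replicates, at 126, 116 and 98 CPM untreated and 13.9, 14.1 and 14.8 CPM with both. The lysophosphatidic acid receptor gene Lpar6 fell by 3.75, Abhd15 by 3.12, the transporter gene Slco4a1 by 3.11, Nol4l by 2.97 and Lhfpl2 by 2.88.

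Rises outside the lists included Hs3st3b1, a heparan sulfate sulfotransferase at chromosome 11, 63885792 to 63922290. It measured 0.679, 1.5 and 1.49 CPM untreated, 19.1, 12.3 and 25.6 CPM with IFNg alone, 18.2, 14.6 and 22.5 CPM with IL4 alone, and 101, 75.7 and 120 CPM with both. The change against untreated was log2 5.49 ± 0.23 (adjusted p = 6.8e-12), and the combination was higher than IFNg alone by 2.35 (adjusted p = 1.4e-06) and than IL4 alone by 2.35 (adjusted p = 3.9e-07). All 3 libraries with both cytokines lay above all 6 with either alone. Gja1, the gap junction protein connexin 43, rose from 4.1, 5.51 and 3.07 CPM to 170, 127 and 116 CPM (log2 4.74 ± 0.22), and exceeded IFNg alone by 1.04 (adjusted p = 0.0042, and 0.2 without the block) and IL4 alone by 3.29 (adjusted p = 6.0e-09). Serpina3f, a neighbour and close relative of Serpina3g, rose by 6.98.

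Against IFNg alone at the same time, 668 genes were higher with both cytokines and 512 lower (5.87% and 4.5% of those tested), so 56.6% of the calls were higher, 68% on the deposited scale and 74% without the block (2.22% and 0.782% of those tested). Among genes that were also called against untreated cells, the largest positive differences were Pdcd1lg2 at 4.69, Ccl24 at 4.58, Irf4 at 3.79, Myc at 3.43, Cpeb2, a translational regulator, at 3.08, Batf3 at 3.05, the adhesion gene Cdh1 at 2.90 and Dusp4 at 2.84. The largest negative ones were Arrdc3 at -2.30, Ccl4 at -2.12, Lpar6 at -2.02, the kinase gene Sgk1 at -1.93, Ccl3 at -1.93 and Pdgfb at -1.83. Tnf, not called against untreated cells, stood at -2.17. Pdgfb, a growth factor chain, measured 52.8, 15.2 and 55.9 CPM with IFNg alone, 3.99, 1.03 and 3.94 CPM with IL4 alone and 13.3, 4.03 and 14.2 CPM with both. The negative calls of Sgk1, Ccl3, Pdgfb and Ptafr were lost without the block (adjusted p = 0.056, 0.14, 0.2 and 0.12).

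Against IL4 alone, 1853 genes were higher with both and 1929 lower (16.3% and 17% of those tested), with 49% of the calls higher, 58.6% without the block (8.68% and 6.13% of those tested). Among genes that were also called against untreated cells, predicted genes left out, the largest positive differences were Cxcl10 at 7.52, Cxcl9 at 7.08, Iigp1 at 6.23, Serpina3f at 5.10, Gbp2 at 4.94 and Irg1 at 4.83. The largest negative ones were S1pr1 at -2.86, Cd300lb at -2.83, Bhlhe41 at -2.38, Dusp7 at -2.26 and Pxdc1 at -2.18. Cd300lb, an activating myeloid receptor, measured 398, 357 and 368 CPM untreated, 30.1, 30.6 and 29.6 CPM with IFNg alone, 536, 484 and 505 CPM with IL4 alone and 75, 68.1 and 68.7 CPM with both. It was thus above IFNg alone (log2 1.20, adjusted p = 0.0012) and below the untreated range.

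The element letters were counted in the same window in every gene that has a RefSeq promoter in the table. A gene was counted if the window of any of its annotated starts held them. Of the 678 genes raised by log2 1 or more 508 have such a promoter, and of the 363 lowered 265. All shares by gene are of genes with a promoter. GAS letters stood in 13.2% of the 508 genes raised by log2 1 or more (67 genes), beside 7.32% of all 8783 tested genes with a promoter. ISRE cores stood in 10.2% (52 genes) beside 3.5%, and the longer-spacer letters in 7.48% (38 genes) beside 5.76%. In the 265 genes lowered by log2 1 or more the shares were 9.06%, 2.26% and 6.42%. Among the 284 raised genes that were also higher by at least log2 1 than with IL4 alone, 18% held GAS letters, 15.1% an ISRE core and 7.04% the longer-spacer letters. Among the 94 raised genes that were also higher by at least log2 1 than with IFNg alone, 13.8% (13 genes, Pdcd1lg2 among them) held the longer-spacer letters, 8.51% GAS letters and 2.13% an ISRE core. Over all 32851 promoters of the table, counted singly and not by gene, the shares were 7.02% for GAS, 2.98% for ISRE cores and 5.85% for the longer spacer. These shares are descriptions without a test, and some windows overlap exons of other transcripts.

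Between 2 h and 4 h with both cytokines, 2623 genes were higher at 4 h and 2714 lower (23% and 23.8% of those tested), so 49.1% of calls were higher, 35.1% on the deposited scale. Without the block 9.41% were higher and 8.89% lower. The GTPases were higher at 4 h in 15 of 17 cases with none lower, MHC class I genes in 17 of 17, MYC and ribosome genes in 28 of 39 with 2 lower, and alternative activation markers in 18 of 30 with 2 lower. Without the block these counts of higher genes were 13, 15, 15 and 11, and on the deposited scale 10 of the MYC and ribosome genes were higher. Genes that were weak at 2 h included Ciita, which reached 73.3, 30.8 and 63.6 CPM at 4 h (log2 2.24 above 2 h, adjusted p = 4.2e-10). Arg1 reached 10.2, 38.7 and 8.28 CPM (log2 2.80, adjusted p = 2.6e-05) and Nos2 6.76, 4.98 and 3.68 CPM (log2 1.70, adjusted p = 7.2e-06), so each lay above all of its 2 h libraries. Mnt and Zfp36l2, low at 2 h, were higher at 4 h by 1.39 and 2.21, whereas Ccr1 and Tlr13 were lower, with log2 differences of -1.74 and -2.24.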

How the data were processed

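Poly(A) RNA libraries were aligned with TopHat2 2.1.0 to mm10 (GRCm38) and counted with HTSeq, per the submitters' processing notes, which also name edgeR; settings and the strand of counting are not given in the sources used here. The authors deposited CPM per gene for 21 libraries, with no replicates pooled, and 24 further samples were not analysed here. Column names gave each library's group and replicate. The members and gene lists were chosen with earlier results of these data known.

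From the deposited CPM, libraries were rescaled by median ratio over 13025 genes, genes reaching 1 CPM in 3 or more of the libraries were kept, and log2(CPM + 1) was tested with limma 3.58.1 (R 4.3.3, trend, Benjamini-Hochberg) over all 21 libraries, which share an estimate of the spread. Replicate number was a block because the comparison is set up as paired by number. Same-numbered untreated and treated libraries deviated together (correlations of 0.815, 0.857 and 0.630, against -0.737 to 0.251 for other numbers). So did all 63 same-numbered pairs (0.539 to 0.951, against -0.859 to 0.369). The deviations are from the mean of each group of 3. Positive correlations at the same number therefore push those of other numbers below zero on average, and the contrast is partly built in. No replicates were alike within sampling noise.

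Every deposited CPM value came out as a whole number of reads (100% within 0.01 read), so depth is known, and edgeR 4.0.16 (2662 genes higher, 2331 lower) and DESeq2 1.42.0 were run on those reads as alternatives. Other alternatives were the deposited scale, TMM scaling, another pseudocount, other filters, the fit without the block, the 6 libraries of a comparison alone, and leaving out replicates. Counts with untreated replicate 1 as the lone control were added for the lists after seeing the data. The fit was tested on simulated data.

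Named were fixed genes and list leaders, and in each direction the 15 largest called changes against untreated (8 in each other comparison) with at least 5 CPM in the higher group and no overlap. In the other comparisons these genes also had to be called against untreated. Predicted genes were left out of these rankings. In each list up to 4 called and 2 uncalled members came from the rule, and the other members named were chosen after their values were seen; a few named genes are not reported here. Promoters came from RefSeq (GRCm38.p6) and gene positions from GENCODE M21.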

Additional observations from a re-analysis of the deposited data

Results flagged for a closer look

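The combination at 2 h differed from the combination at 4 h in many genes. The choice was made among genes called in this comparison and at 2 h against untreated, with at least 5 CPM in the higher group. No overlap between libraries was also required, and predicted genes were left out. Of the 16 with the largest differences in that choice, 15 are given here (log2 level at 4 h minus that at 2 h). Each was past the limma test, with the replicate block and without it. Being called at 2 h against the shared untreated libraries, with the block, was thus fixed by the choice. Without the block Apol7c, Upp1, Gpr162, Samd4 and Abcd2 were not called at 2 h (adjusted p = 0.12, 0.097, 0.3, 0.49 and 0.21). No cause was tested.

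Higher at 4 h were Apol7c, an apolipoprotein L gene, by 3.90 (6.05, 1.79 and 1.28 CPM at 2 h and 125, 31.1 and 35.7 CPM at 4 h), Il12rb1, an interleukin 12 receptor chain, by 3.56 (2.02, 1.69 and 1.35 CPM, then 34.1, 29.5 and 28.4 CPM), and Flt1, a VEGF receptor, by 3.49 (6.45, 6.81 and 6.33 CPM, then 102, 59.6 and 95.1 CPM). Gbp4, whose exons overlap Gbp8 and Gbp9, was higher by 3.36, uridine phosphorylase Upp1 by 3.04, the thrombin receptor F2r by 2.96, calponin Cnn3 by 2.81 and endothelin Edn1 by 2.71. In each of these 8 genes all 4 h libraries lay above all 2 h libraries, which was a condition of the choice.

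Lower at 4 h were Gpr162 by -2.94 (68.5, 20.8 and 50.4 CPM at 2 h and 4.95, 4.2 and 4.55 CPM at 4 h), the iron exporter Slc40a1 by -2.92 (64.5, 46.9 and 55.2 CPM, then 5.43, 8.67 and 5.49 CPM), and Arhgap22 by -2.51. The amino acid transporter Slc16a10 differed by -2.45, Samd4 by -2.37, the peroxisomal transporter Abcd2 by -2.25 and Tlr13 by -2.24 (119, 192 and 96 CPM, then 18.5, 41.5 and 24.5 CPM). Without the block the adjusted p-values of the 16 ran from 7.4e-09 to 0.04.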

How the results depend on the processing

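No change of direction was counted among the 226 named results under those of the 28 alternatives that were run for each. Leaving out a library was run where it enters the comparison. A change was counted only if the result was called in the main fit or in the alternative. Changes of sign in results called in neither were thus not counted. Of the 120 named genes called against untreated, 104 were called the same way under every alternative run for them. The pairing by replicate number matters for the counts: without the replicate block the calls number 2525 against untreated (main 4944), 342 against IFNg alone (1180), 1686 against IL4 alone (3782) and 2083 for 4 h against 2 h (5337), and 15 named results lost their call. On the deposited CPM scale the calls number 538 against IFNg alone, 1901 against IL4 alone and 2419 for 4 h against 2 h, with 6 named results lost and 10 gained. Fitting only the 6 libraries of the comparison gave 1904 calls against IFNg alone. Leaving out replicates gave 3117 to 4825 calls against untreated, 419 to 1476 against IFNg alone, 2069 to 3856 against IL4 alone and 2988 to 5149 for 4 h against 2 h; the lowest value of each is without replicate 3 of every group, and without replicate 1 there were 649 against IFNg alone. The cause of these shifts was not tested. With untreated replicate 1 as the lone control, whose spread is assumed to be like that of the other groups, the named genes that lost their calls against untreated included Cd74, Ciita, H2-Aa, Ccnd1, Ccne2, Kdr and S100a9. With edgeR and DESeq2 on recovered reads 4993 and 5078 genes were called against untreated. In genes under about 1 CPM, such as Nos2, Retnla and Gbp10, the 1 CPM added before the log flattens the log2 change. Depth also limits Retnla and Gbp10, which were lower still than Nos2 with both cytokines.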
